A study of Mus musculus with 8 samples.

Results

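The luminal and basal keratins of the mammary gland were examined in whole mammary tumors from 8 mice that carried the MMTV-PyMT transgene, in which the mouse mammary tumor virus promoter drives the polyoma middle T antigen in mammary epithelium. The keratins were chosen by name: Krt7, Krt8, Krt18 and Krt19 as luminal, and Krt5, Krt14, Krt15 and Krt17 as basal. Of these 8 genes, 7 had an array row with 1 gene symbol, out of 22180 genes with such a row. The only row of Krt5 also carries the symbol Krt6a, so no value is given for Krt5. The first group (cKO) held 4 tumors from conditional knockout mice, MMTV-Cre+/Mmp14(f/f), in which both Mmp14 alleles are floxed and the same promoter drives Cre. The second (WT) held 4 tumors from Mmp14(f/f) littermates without Cre, which the labels call wild-type. The strain was congenic FVB/NJ and the age 3 to 4 months throughout, and both groups carried the floxed alleles and the PyMT transgene. The groups thus differ in Cre itself as well as in the targeting of Mmp14, and whole tumors also hold stromal and immune cells, whereas the MMTV promoter acts mainly in mammary epithelium.

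Keratins build the intermediate filaments of epithelial cells, and each filament pairs a type II with a type I keratin. Krt5, Krt7 and Krt8 are type II, and Krt14, Krt15, Krt17, Krt18 and Krt19 are type I. In the mammary gland the Krt8 and Krt18 pair fills the luminal cells that line the ducts, while the Krt5 and Krt14 pair is typical of the basal, myoepithelial layer. PyMT tumors are mostly of luminal type, and Krt14 is known there as a mark of the cells that lead collective invasion.

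Each tumor gave 1 array of log2 signals, and array medians lay between 3.64 and 3.71. Mmp14, the membrane-anchored protease that was targeted, had signals of 7.98, 7.74, 7.44 and 7.72 in cKO tumors 1 to 4, against 8.86, 9.12, 9.31 and 9.17 in WT tumors 1 to 4. It was lower in all 4 cKO tumors, by −1.40 on the log2 scale (SE 0.13, limma adjusted p 0.0444). With single tumors left out its adjusted p lay between 0.0429 and 0.211. WT 1 stood apart in some genes of hair and skin. Its score on the 18 measured hair follicle genes, the mean deviation of these genes from their means over the 8 tumors, was 0.28, while the other 7 tumors lay between −0.09 and 0.04. Most of that score came from Tchh, Krt73 and Krt27, at 4.57, 5.89 and 3.79 in WT 1 against means of 2.46, 4.37 and 2.92. Other genes of the list lay below their means in WT 1, such as Krt71 at 3.65 against 3.89. Since skin also makes Krt14, Krt15 and Krt17, the main results on these are given without WT 1 as well. Epithelial RNA was plentiful in all tumors, with Epcam, the epithelial adhesion molecule, between 10.45 and 10.60 in cKO tumors and between 10.51 and 10.64 in WT tumors.

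No keratin passed limma's test between cKO and WT tumors. The number of members past the adjusted threshold of 0.05 was 0 of 7, where 0.0085% of the 23521 rows tested passed. At an unadjusted p below 0.05 there was 1 member of 7, Krt19, beside 9.68% of all rows in either direction and 4.14% of all rows lower in cKO, as Krt19 was. The groups overlapped in every one of the 7 keratins, whereas 5.42% of all rows had groups that did not overlap. The 4 luminal keratins were all lower in cKO, with a median difference of −0.20, and of the 3 basal keratins 1 was lower and 2 were higher, with a median of 0.0013. Over all rows tested the median difference was 0.02, and 43.5% were lower in cKO.

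**Figure D1:**
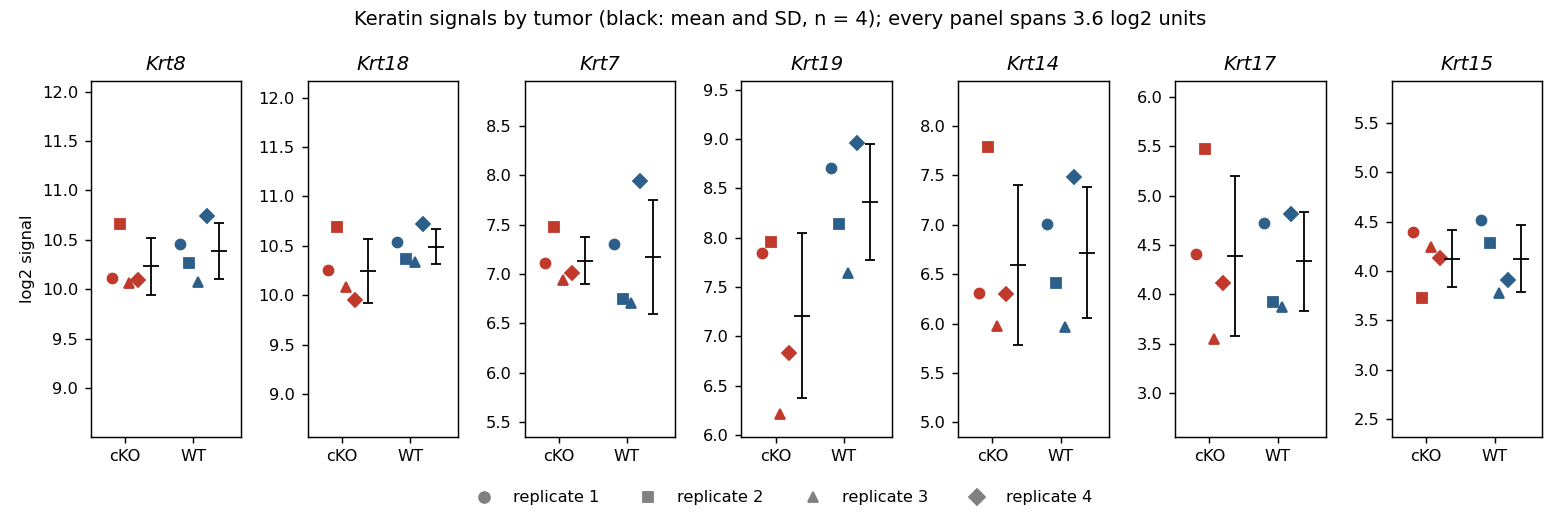
Log2 signal of the 7 keratins by tumor, with cKO on the left and WT on the right of each panel. Points are tumors, shaped by replicate number, and black bars give the mean and SD of 4 tumors. Every panel spans the same number of log2 units, and the cKO tumors reach below the WT tumors most in Krt19.

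Krt19, a small type I keratin without the usual tail domain that luminal cells express, had the largest difference of the 7. Its log2 signals were 7.85, 7.96, 6.21 and 6.83 in cKO tumors 1 to 4, against 8.71, 8.13, 7.65 and 8.96 in WT tumors 1 to 4. The lowest values were those of cKO 3 and cKO 4, and the overlap came from WT 3, which lay below cKO 1 and cKO 2. The mean was 7.21 ± 0.84 in cKO and 8.36 ± 0.59 in WT (SD, n = 4 each). The difference was −1.15 (SE 0.42, 95% confidence interval −2.10 to −0.20), which is 45.1% of the WT signal. It did not pass over all rows, with limma's adjusted p at 0.446 (unadjusted p 0.0230). An exact two-sided permutation gave p 0.114, where 4 against 4 allows no p below 0.0286. Limma's unadjusted p for Krt19 was below 0.05 in 12 of 17 alternative fits. With 1 tumor left out it lay between 0.00959 and 0.0651, and without WT 1 the difference was −1.03 (limma unadjusted p 0.0605). Among arrays 1 to 4 the difference was −0.52, and among arrays 5 to 8 it was −1.78, each with 2 tumors a group. In whole tumors, fewer cells of a type and less RNA per cell cannot be told apart.

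Krt8 and Krt18, the filament partners of simple epithelia, had the narrowest range over the 8 tumors of the 7 keratins. Krt8 had signals of 10.11, 10.66, 10.06 and 10.10 in cKO tumors 1 to 4, against 10.45, 10.27, 10.07 and 10.74 in WT tumors 1 to 4. In cKO, only cKO 2 stood clear of the other 3, and it lay close to the highest WT tumor, WT 4. The difference of −0.15 (SE 0.18) had an interval of −0.55 to 0.25 and a limma adjusted p of 0.826. Krt18 had signals of 10.25, 10.69, 10.09 and 9.95 in cKO tumors 1 to 4, against 10.54, 10.36, 10.34 and 10.72 in WT tumors 1 to 4. Here too cKO 2 and WT 4 were highest, while the other 3 cKO tumors lay below all 4 WT tumors. The difference was −0.25 (SE 0.16, interval −0.61 to 0.12, limma adjusted p 0.667). A second, dimmer row of Krt18 had a mean of 6.24 ± 0.52 in cKO and 6.60 ± 0.28 in WT (SD, n = 4 each), a difference of −0.37 (SE 0.25), so the 2 rows pointed the same way and neither passed.

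Krt7, a type II keratin of ducts and other simple epithelia, did not separate the groups. Its signals were 7.12, 7.48, 6.94 and 7.01 in cKO tumors 1 to 4, against 7.30, 6.74, 6.71 and 7.94 in WT tumors 1 to 4. The lowest and the highest of the 8 were both WT tumors, WT 3 and WT 4. The difference of −0.04 (SE 0.26) had an interval of −0.63 to 0.56 and a limma adjusted p of 0.978, so a difference of that size in either direction was not distinguishable with 4 tumors a group. It was 0.22 without WT 4 and 0.28 within arrays 1 to 4, against −0.35 within arrays 5 to 8.

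Among the basal keratins, Krt14 varied widely within each group. Its signals were 6.31, 7.79, 5.98 and 6.30 in cKO tumors 1 to 4, against 7.01, 6.41, 5.97 and 7.49 in WT tumors 1 to 4. The highest tumor was cKO 2 and the next WT 4, while cKO 3 and WT 3 were lowest and nearly level. The mean was 6.59 ± 0.81 in cKO and 6.72 ± 0.67 in WT (SD, n = 4 each), a difference of −0.12 (SE 0.43, interval −1.10 to 0.85, limma adjusted p 0.952). The sign followed single tumors, since the difference was −0.52 without cKO 2, 0.08 without cKO 3, 0.13 without WT 4 and −0.03 without WT 1. Arrays 1 to 4 gave 0.34 and arrays 5 to 8 gave −0.59.

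Krt17, a type I keratin of basal and injured epithelium, lay on average not far above the array medians, and in cKO 3 it lay below them. Its signals were 4.41, 5.47, 3.55 and 4.12 in cKO tumors 1 to 4, against 4.72, 3.92, 3.87 and 4.81 in WT tumors 1 to 4. As in Krt14, cKO 2 was highest and WT 4 next, and cKO 3 was lowest. The difference was 0.05 (SE 0.39, interval −0.83 to 0.94, limma adjusted p 0.980), and it was −0.31 without cKO 2 and 0.18 without WT 1. Krt15, a type I keratin of basal and stem cells in skin, had signals of 4.40, 3.73, 4.25 and 4.13 in cKO tumors 1 to 4, against 4.52, 4.28, 3.78 and 3.91 in WT tumors 1 to 4. It went its own way, with cKO 2 lowest and WT 1, the tumor with some hair and skin genes high, highest. The difference was 0.0013 (SE 0.19, interval −0.43 to 0.44, limma adjusted p 0.999), and 0.13 without WT 1. No detection call was used here, so Krt15 and Krt17 were not shown to be above background in every tumor, and a difference on this scale can understate a change in RNA.

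**Figure D2:**
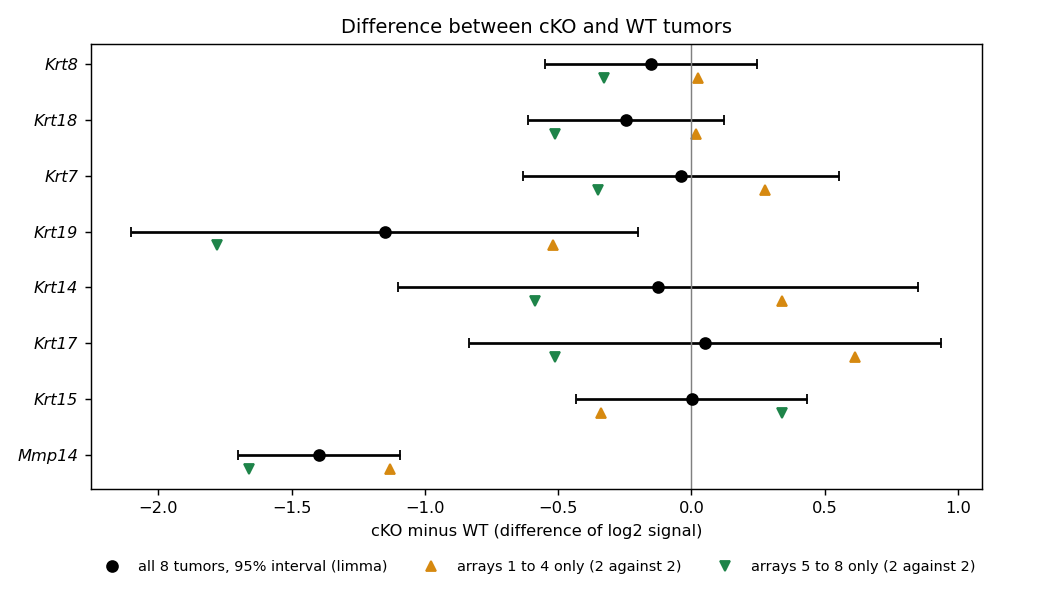
Difference of log2 signal, cKO minus WT, for the 7 keratins and for Mmp14. Black points and bars give limma's estimate and its 95% interval over 8 tumors, and triangles the difference among arrays 1 to 4 and among arrays 5 to 8. All intervals but those of Krt19 and Mmp14 span 0, and for 6 of the 7 keratins, all but Krt19, the triangles lie on opposite sides of 0.

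The keratins differed in how widely they varied between tumors. Over the 8 tumors Krt19 spanned 2.74 log2 units, Krt17 1.92 and Krt14 1.82, while Krt7 spanned 1.23, Krt15 0.79, Krt18 0.77 and Krt8 0.68. Of all rows with a mean of at least 5, 98.4% had a smaller SD over the 8 tumors than Krt19, 96.2% a smaller one than Krt14 and 70.2% a smaller one than Krt18. The mean deviation of the 4 luminal keratins was −0.07, 0.29, −0.58 and −0.43 in cKO tumors 1 to 4, against 0.35, −0.03, −0.21 and 0.68 in WT tumors 1 to 4. Their mean difference was −0.40, and −0.14 with Krt19 left out of the mean. For the 3 basal keratins the deviation was −0.01, 0.62, −0.46 and −0.20 in cKO tumors 1 to 4, against 0.37, −0.17, −0.51 and 0.36 in WT tumors 1 to 4. Their mean difference was −0.02. In both lineages cKO 2 was the highest cKO tumor and WT 3 the lowest WT tumor. Without WT 4 the luminal mean difference was −0.23, and the basal one was −0.23 without cKO 2, 0.13 without cKO 3 and 0.10 without WT 1. The luminal value was −0.05 among arrays 1 to 4 and −0.74 among arrays 5 to 8, and the basal value 0.21 and −0.25.

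**Figure D3:**
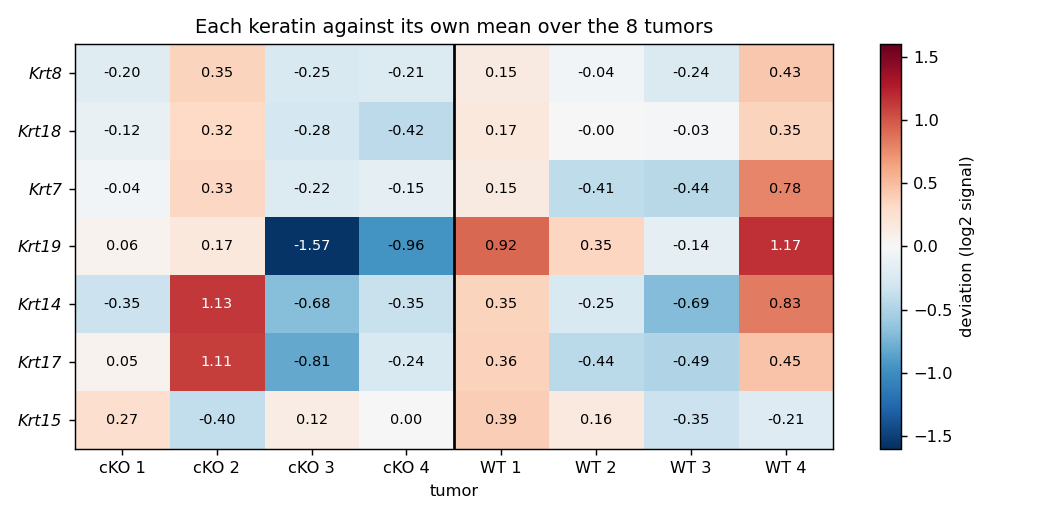
Deviation of each keratin from its own mean over the 8 tumors, in log2 signal, with cKO tumors left of the line and WT tumors right of it. All rows but the last, Krt15, have their highest cKO value in cKO 2 and their highest WT value in WT 4, while Krt19 is lowest in cKO 3 and cKO 4.

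All keratins but Krt15, luminal and basal alike, tended to be high and low in the same tumors, and the pair most alike joined a luminal with a basal member. Over the 8 tumors Krt8 and Krt14 correlated with r = 0.97 (exact permutation p 0.000794, adjusted p 0.00833) and rho = 0.95 (exact permutation p 0.00114, adjusted p 0.0192). Krt14 and Krt17, both basal, correlated with r = 0.94 (exact permutation p 0.000570, adjusted p 0.00833) and rho = 0.90 (exact permutation p 0.00456, adjusted p 0.0192). The filament partners Krt8 and Krt18 correlated with r = 0.90 (exact permutation p 0.00174, adjusted p 0.0122) and rho = 0.88 (exact permutation p 0.00724, adjusted p 0.0217). All 21 pairs of the 7 keratins were compared, with Benjamini-Hochberg adjustment over the 21. By r, 8 pairs passed, and by rho 10. The share of pairs passing among other genes was not computed. The points are separate tumors that were normalized together, and both keratins of a pair were read from the same array. What a pair shares through that array or through the tumor's cell content was not tested.

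Those correlations were tried against single tumors and against the groups. Without cKO 2 and WT 4, the 2 tumors farthest from the median of Krt8 and of Krt14, r was 0.94 for Krt8 and Krt14, 0.85 for Krt14 and Krt17 and 0.76 for Krt8 and Krt18, but 0.51 for Krt7 and Krt8. With the 2 tumors farthest from the median of a pair's first keratin left out of each pair in this way, no pair passed after adjustment over the 21, with 6 tumors each. Taken as deviations from the group means, r was 0.99, 0.95 and 0.91 for the first 3 of these pairs. Krt8 and Krt14 had r = 0.97 within arrays 1 to 4, r = 0.98 within arrays 5 to 8 and r = 0.97 without WT 1, and Krt14 and Krt17 had r = 0.93 without WT 1. Without WT 1, 3 of the 21 pairs passed, and without cKO 3, 4 did. Without cKO 2 or without WT 3 the count was 5.

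**Figure D4:**
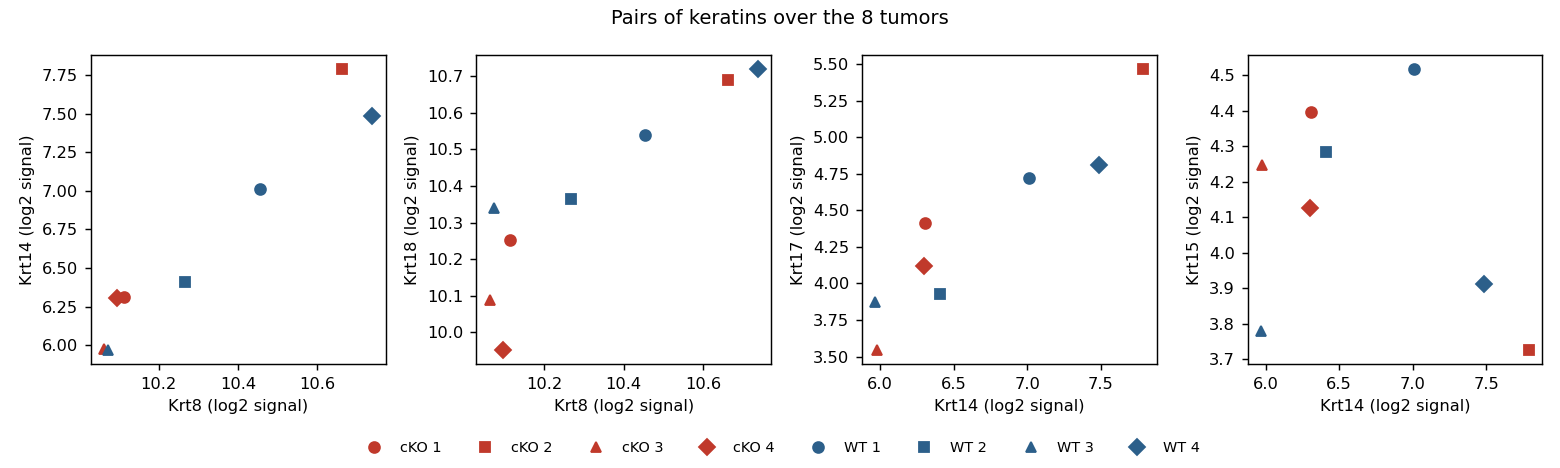
Pairs of keratins over the 8 tumors, in log2 signal, with colour for the group and shape for the replicate. In the first 3 panels cKO 2 and WT 4 lie at the upper right and the other tumors of both groups follow the same line, while Krt15 shows no such line with Krt14.

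Krt15 and Krt19 stood outside this pattern in different ways. Krt15 correlated below 0 with each of the other 6 keratins, with r between −0.35 and −0.02, and none of these passed. Without cKO 2 and WT 4, r was 0.73 with Krt14, 0.77 with Krt7 and 0.64 with Krt8, so the sign of these 3 rested on those tumors. The r with Krt18 was −0.34 without cKO 4 and WT 4, that with Krt17 was −0.06 without cKO 2 and WT 3, and that with Krt19 was 0.26 without cKO 3 and cKO 4. Without WT 1, the r of Krt15 with the other 6 lay between −0.60 and −0.31. Krt19 correlated with Krt18 (r = 0.84, exact permutation p 0.00935, adjusted p 0.0262, rho = 0.88, exact permutation p 0.00724, adjusted p 0.0217). That r was 0.29 within arrays 1 to 4, 0.93 within arrays 5 to 8 and 0.74 without cKO 4 and WT 4, the 2 tumors farthest from the median of Krt18. With Krt14, r was 0.66 (exact permutation p 0.0760, adjusted p 0.123, rho = 0.79, exact permutation p 0.0279, adjusted p 0.0533). Set against the mean deviation of Krt7, Krt8 and Krt18 in the same tumor, Krt19 lay at 0.18, −0.17, −1.33 and −0.70 in cKO tumors 1 to 4, against 0.77, 0.50, 0.09 and 0.65 in WT tumors 1 to 4. WT 3 was thus below cKO 1, and the other 3 WT tumors were above all 4 cKO tumors. This contrast was chosen after the values were seen and carries no test.

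Among 9939 other genes with a mean of at least 5, Krt8 had the highest correlation with Krt14 over the 8 tumors. Krt18 ranked 79th by likeness to Krt8, Krt7 ranked 182nd (r = 0.87) and Krt19 626th (r = 0.74). By likeness to Krt14, Krt7 ranked 179th (r = 0.85). Many genes that are not keratins thus followed Krt8 and Krt14 as closely as these did. Outside the keratins, the genes most like the mean of Krt8 and Krt18 were the chemokine Cxcl16 and the galectin Lgals3 (r = 0.99 each), then the transcription factor Klf5, Pxdc1 and the methyltransferase Setd3 (r = 0.98 each). Those most like Krt14 were Wdr1, a cofactor of actin disassembly (r = 0.97), and the tropomyosin Tpm4, the mitochondrial CYTB, the Hippo kinase Lats2 and the kinase Sgk3 (r = 0.96 each). These are descriptions over 8 points, picked as the highest of many, and have no p. Krt5 has no row of its own, so the second pattern is that of Krt14 alone.

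Genes of this family lie in 2 clusters. In the RefSeq table of GRCm38.p6, Krt15, Krt19, Krt14 and Krt17 lie in that order on chromosome 11, and Krt7, Krt5, Krt8 and Krt18 on chromosome 15. Krt18 is thus the type I member that lies beside type II genes. The promoter table held windows for 5 of the 8 genes. The 3 printed are those of the luminal genes on chromosome 15, of which Krt8 correlated across tumors with Krt18 and with Krt7, while the pair of Krt7 and Krt18 did not pass (r = 0.70, exact permutation p 0.0538, adjusted p 0.0941). The window of Krt14 starts inside the gene's annotated span and is not shown. Each runs from 250 bases before to 50 bases after the annotated start, 5′ to 3′ on the gene's own strand, and capitals mark matches on either strand to the TATA box (searched as TATAAA), the AP-1 site (searched as TGANTCA), the GC box of Sp1 factors (searched as GGGCGG) or the GATA factor site (searched as AGATAA). The Krt7 window is chr15:101412153-101412452 on the plus strand, that of Krt8 is chr15:102004293-102004592 on the minus strand, and that of Krt18 is chr15:102027966-102028265 on the plus strand.
Krt7: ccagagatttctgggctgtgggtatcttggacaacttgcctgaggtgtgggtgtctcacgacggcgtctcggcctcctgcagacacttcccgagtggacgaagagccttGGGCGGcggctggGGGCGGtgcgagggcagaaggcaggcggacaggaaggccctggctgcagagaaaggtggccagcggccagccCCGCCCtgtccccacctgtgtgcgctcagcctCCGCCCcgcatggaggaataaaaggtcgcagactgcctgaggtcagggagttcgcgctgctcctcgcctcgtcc
Krt8: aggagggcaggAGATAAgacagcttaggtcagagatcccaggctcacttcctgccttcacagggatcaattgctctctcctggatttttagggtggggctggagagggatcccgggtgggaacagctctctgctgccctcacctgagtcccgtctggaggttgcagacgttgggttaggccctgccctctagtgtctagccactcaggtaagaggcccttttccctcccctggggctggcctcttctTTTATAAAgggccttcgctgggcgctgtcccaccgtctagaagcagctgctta
Krt18: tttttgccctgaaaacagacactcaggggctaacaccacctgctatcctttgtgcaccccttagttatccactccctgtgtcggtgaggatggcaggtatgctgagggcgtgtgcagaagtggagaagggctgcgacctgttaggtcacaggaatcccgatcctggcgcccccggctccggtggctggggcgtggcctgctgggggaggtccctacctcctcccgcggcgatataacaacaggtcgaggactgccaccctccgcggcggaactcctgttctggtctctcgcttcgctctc
The Krt7 window holds GGGCGG 4 times, 2 of them on each strand, a run found in 35.7% of the 32851 windows in the table. Krt8 holds TATAAA at its annotated start, read on both strands in overlapping matches, and AGATAA once. These are found in 13.6% and 11.2% of all windows. None of the 4 runs is in the Krt18 window, and TGANTCA, found in 7.81% of windows, is in none of the 3. The matches describe these letters and are not shown to be binding sites.

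The rest of the keratin family was mostly dim. Of 46 other keratins with a row, 24 were higher and 22 lower in cKO, with a median difference of 0.0016, and none passed. Only 3 had a mean of at least 5. Krt79, a type II keratin of skin and glands, had a mean of 6.15 ± 0.91 in cKO and 5.26 ± 0.68 in WT (SD, n = 4 each), a difference of 0.89 (SE 0.47, limma adjusted p 0.589). Krt23 differed by 0.16 (SE 0.50) and Krt80 by 0.0091 (SE 0.35), and neither passed. Krt73, a keratin of the hair root sheath named after its values were seen, stood at 5.89 in WT 1, while the other 7 tumors lay between 3.92 and 4.46. Krt10 and Krt1, keratins of the outer epidermis, were also highest in WT 1, at 4.45 and 4.09.

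Other markers of the luminal and basal layers leaned the same way as Krt19, without passing. Of 18 measured luminal markers other than keratins, 15 were lower in cKO, with a median difference of −0.19. The mucin Muc1 stood at −0.69 (SE 0.22), the pioneer factor Foxa1 at −0.77 (SE 0.29) and the surface protein Ly6d at −1.40 (SE 0.54), with limma adjusted p of 0.376, 0.455 and 0.465. Of 17 basal and myoepithelial markers other than keratins, 16 were lower in cKO, with a median of −0.39. The laminin chain Lamb3 stood at −0.81 (SE 0.23), the myosin kinase Mylk at −0.42 (SE 0.13) and the smooth muscle myosin Myh11 at −0.28 (SE 0.10), with limma adjusted p of 0.323, 0.369 and 0.435. Mylk and Myh11 are also made by vascular muscle. Trp63, the transcription factor that defines basal epithelial cells, ran from 4.75 in cKO 2 to 5.38 in cKO 1, against 5.10 in WT 3 to 5.57 in WT 4, a difference of −0.21 (SE 0.16). The tumor highest in Krt14, cKO 2, was thus the lowest in Trp63, but the other basal markers were mixed in that tumor. Named after their values were seen, Itgb4 at 9.44 and Cnn1 at 4.43 were highest in cKO 2, while Snai2 at 5.98 was lowest there. The mean deviation of the 17 basal markers in cKO 2 was −0.02.

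A list of keratin anchoring genes, most of them of desmosomes and hemidesmosomes, had lower RNA signals in cKO for 13 of 17 genes. The median difference was −0.15, and none passed. The plakin Ppl stood at −0.58 (SE 0.24), the junction protein Jup at −0.21 (SE 0.09) and the desmosomal cadherin Dsc2 at 0.43 (SE 0.20). The mean deviation of these 17 genes was highest in WT 4, at 0.33, and in cKO it was highest in cKO 2, at 0.19, the same tumors that were high in Krt8 and Krt14.

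**Figure D5:**
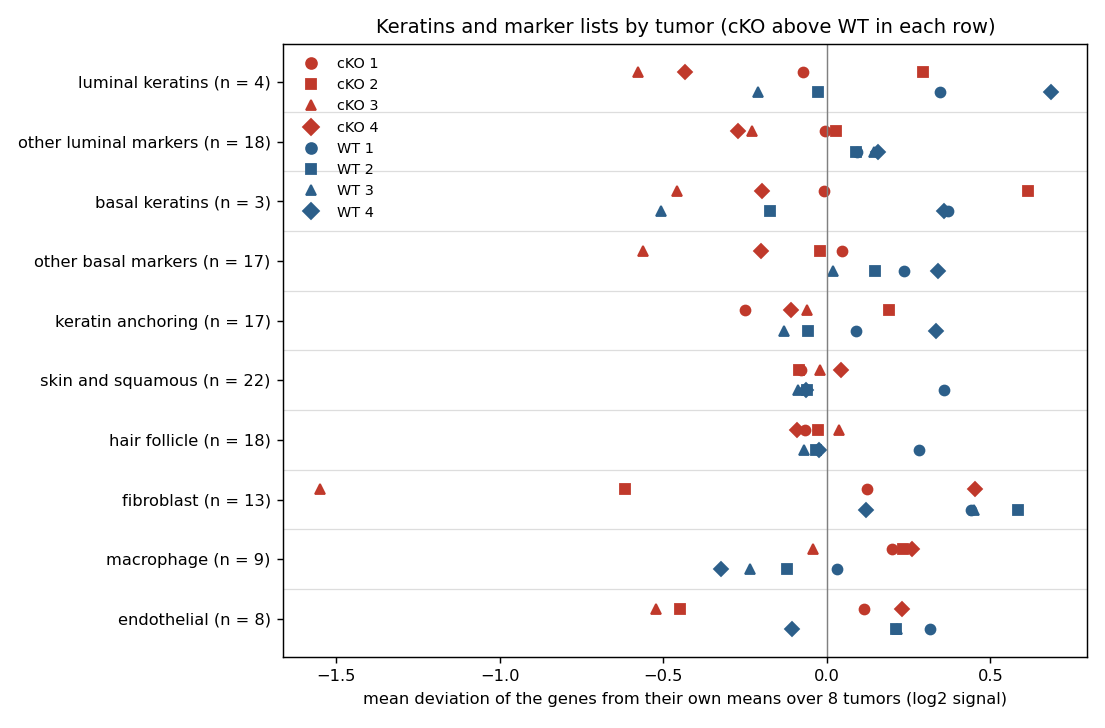
Mean deviation of the keratins and of marker lists in each tumor, in log2 signal, with cKO drawn above WT in each row. WT 1 stands apart in the skin and hair follicle lists and cKO 3 in the fibroblast list. The keratin rows average fewer genes than the other rows, so their spread cannot be set directly against that of the lists.

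Markers of other tissue also varied beside the keratins. All 13 fibroblast markers were lower in cKO, with a median of −0.92, and the score ran from −1.55 in cKO 3 to 0.45 in cKO 4, against 0.12 to 0.58 in WT. Krt19 was lowest in cKO 3 and next lowest in cKO 4, the tumors with the lowest and the highest fibroblast score of the cKO group. The fibroblast genes with the smallest p were Col1a1 at −1.36, Postn at −1.26 and Pdgfra at −0.71. The score of 8 endothelial markers, all lower, ran from −0.52 to 0.23 in cKO and from −0.11 to 0.31 in WT, and that of 9 macrophage markers, 7 of them higher, from −0.04 to 0.26 in cKO and from −0.32 to 0.03 in WT. In these lists no gene passed, and their part in the keratin values was not tested. All 9 measured cell cycle genes were higher in cKO, with a median of 0.79 and none past the threshold.

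Skin and appendages were low by most of their defining markers, with exceptions in WT 1 and, for Krt10, in other tumors as well. In WT 1 Krt10 and Krt1 stood at 4.45 and 4.09, above the array medians. Krt10 also lay above the medians in cKO 1 and cKO 4, at 4.03 and 4.10. Of 22 skin and squamous genes 14 were lower in cKO, with a median of −0.03, and Lor, Ivl and Flg lay between 2.85 and 3.94 in all tumors, around or below the array medians. Among these genes, Krt4 differed by 0.24, Flg2 by −0.18 and Sprr1a by −0.90. Of 18 hair follicle genes 15 were lower, with a median of −0.06, and Msx2 differed by 0.62, Krt31 by −0.13 and Tchh by −0.59. Tchh was at 4.57 in WT 1, while the other 7 tumors lay between 1.91 and 2.29. For 7 adipocyte genes the median was 0.12 with 4 higher, and for 7 skeletal muscle genes it was −0.33 with 6 lower. None of the genes in these 4 lists passed.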

How the data were processed

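RNA from 8 tumors was labelled from 400 ng each and hybridised to Affymetrix arrays, per the labels' protocols. The table deposited by the authors holds log2 signals, for which the submitters' processing notes name RMA and limma without versions or parameters. Of 41345 rows, 23521 had 1 gene symbol, 1814 several, and 16010 are unnamed here; RefSeq (GRCm38.p6) gave the current symbol for 23328 rows through their gene identifiers. The brightest row stood for a gene. Members, lists and tests were chosen with earlier results of these data known. Named genes were the 8 keratins, Mmp14, other keratins with a mean of at least 5, up to 3 genes of smallest p in each list or its defining markers, and the 5 genes most like each pattern; those outside it are said to be chosen later.

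Group differences (cKO minus WT) came from lmFit and eBayes of limma 3.58.1 under R 4.3.3, two-sided and without covariates, over all 23521 rows, with Benjamini-Hochberg adjustment over these rows. The procedure was tested on simulated data. Pairs used exact permutation of the 8 tumors. Alternatives were rescaling, filters, variance models, arrays 1 to 4 against 5 to 8, replicate numbers and single tumors left out. The labels call the tumors biological replicates. Any pair of arrays correlated with r between 0.976 and 0.989. Precision is limited by how few arrays there are. Probe sequences were not used here, so shared hybridisation between like keratins such as Krt14 and Krt17 was not tested.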

Additional observations from a re-analysis of the deposited data

Results flagged for a closer look

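Within groups of 4, values whose gap to the nearest tumor took up a larger share of the range than Dixon's 95% critical value were looked for, and chance gives about 1 in 20 groups. Of 60 groups checked, 6 were flagged. Krt73 is part of the hair follicle list and of the 46 other keratins, so those flags in WT 1 are not separate. Krt8 in cKO 2, at 10.66, stood above the other 3 cKO tumors. In WT 1, Krt73 stood at 5.89, the skin and squamous score at 0.36, the hair follicle score at 0.28 and the mean deviation of the 46 other keratins at 0.11, each above the other 3 WT tumors. The mean deviation of the other keratins in cKO 4, at 0.089, was above the other 3 cKO tumors.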

How the results depend on the processing

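No keratin passed the adjusted threshold under any alternative run, with limma's adjusted p between 0.294 and 0.870 for Krt19 and of at least 0.308 for the other 6. Of the alternative values of the 7 keratins, 98 kept their sign and 19 turned it, and the difference of Krt19 turned in none. Filters, variance models and blocks change the error but not the difference, so the values under these could not turn. Within arrays 1 to 4 the differences that turned were Krt7 at 0.28, Krt8 at 0.026, Krt18 at 0.019, Krt14 at 0.34 and Krt15 at −0.34, and within arrays 5 to 8 Krt17 at −0.51. The cause was not tested. With 1 tumor left out, differences ranged from −0.19 to 0.22 for Krt7, −0.29 to −0.03 for Krt8, −0.39 to −0.15 for Krt18, −1.40 to −0.82 for Krt19, −0.52 to 0.13 for Krt14, −0.11 to 0.13 for Krt15 and −0.31 to 0.33 for Krt17. The luminal mean ran from −0.56 to −0.23 and the basal mean from −0.23 to 0.13. Rows passing over the whole table numbered 8 when all rows of the table were tested, 1 with arrays 1 to 4 against 5 to 8 as a block, 0 within either set of arrays, and 0 to 3 with 1 tumor left out. Mmp14 stayed between −1.66 and −1.13. Pairs passing numbered 0 without the 2 farthest tumors and 3 to 9 with 1 tumor left out, an alternative chosen after seeing the data. With the replicate number as a block, 0 rows and 0 keratins passed. Same-numbered tumors correlated in their deviations with r of −0.02, −0.20, 0.29 and −0.24, and 2 of the 8 tumors correlated best with their own number, so the numbers were not taken as pairs. Dim signals limit what Krt15 and Krt17 can show.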
